A study of Homo sapiens with 42 samples.

Results

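The genes described here belong to the ATF4 and unfolded protein response programmes, followed through cetuximab treatment of head and neck squamous cell carcinoma (HNSCC) cell lines. The list holds 39 genes, chosen by their annotated role with earlier results of these data known. Of these, 38 were measured among 19775 genes with a probe set of their own. SYVN1, the ubiquitin ligase of ER-associated degradation, is the exception, since its probe set also carries the name of another gene. Each gene is given by its brightest probe set over all 42 arrays. The measured genes comprise 24 ATF4-linked genes (5 transcription factors, 8 stress effectors, 8 amino acid and one-carbon genes and 3 tRNA synthetases) and 14 ER genes (10 chaperones and folding enzymes, and 4 genes of ER-associated degradation with XBP1).

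Cetuximab, an antibody that blocks ligand binding to EGFR, was given at 100 nM for 24 hours to the HNSCC lines SCC61, 93VU147T, SCC047, SQ20B, SCC25 and SCC090. Each of these lines has 3 arrays of treated cells and 3 arrays of control cells, labelled as treated with nothing and described in the study as a PBS control. Control cells are listed with no hours of treatment, and whether they were kept in culture for the same 24 hours is not stated. Any effect of a difference in those hours cannot be told apart from that of cetuximab. Treated SCC1 cells and untreated HaCaT cells, an immortalized keratinocyte line, have 3 arrays each and no counterpart here. No agent or genetic change other than cetuximab is labelled in any group, and all cells are established lines. RNA was read on Affymetrix hgu133plus2.0 microarrays, and values are log2 expression. Whether the replicate arrays came from separate cultures is not stated, so p-values measure only the spread between these arrays.

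When unfolded proteins gather in the endoplasmic reticulum, the kinase PERK phosphorylates the translation factor eIF2alpha. General protein synthesis then falls while translation of the ATF4 mRNA rises. Amino acid shortage reaches the same factor through the kinase GCN2, so ATF4 also answers to nutrients. ATF4 induces the stress factor DDIT3 (CHOP), amino acid enzymes such as ASNS and feedback genes such as TRIB3 and PPP1R15A. The other branches of the unfolded protein response, ATF6 and IRE1 with spliced XBP1, mainly induce chaperones such as HSPA5 (BiP) and degradation genes such as HERPUD1. The arrays read mRNA, so they show neither ATF4 protein nor the splicing of XBP1.

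Short DNA motifs bound by these factors are known, and the matches are shown to set the ER genes beside the ATF4-linked genes by sequence. RefSeq promoter windows (GRCh38.p14, 300 bases each, 250 before and 50 after the start of the gene) were at hand for 35 of the 39 genes. The ER stress element (CCAAT, any 9 bases, then CCACG), searched on both strands as were all motifs, was in 5 of 15 ER gene windows and in 0 of 20 ATF4-linked windows, against 0.0806% of all 27305 windows. The 5 genes are HSPA5, HSP90B1 (with a pair of matches), CALR, CRELD2 and XBP1. The shorter ER stress element II (ATTGG, any base, then CCACG) was in the windows of SDF2L1 and HERPUD1, against 0.0549% of all windows. The C/EBP-ATF composite site TGATGNAA was in 3 of 20 ATF4-linked windows (CHAC1, ASNS and AARS1) and in 1 of 15 ER windows (HERPUD1), against 3.67% of all windows. The UPR element TGACGTGG was in 0 of the 35 windows, against 0.795% of all. None of the motifs overlapped another in the matched windows shown. The matches of genes with one of the 5 largest changes of a line are printed with the motif in capitals, 5′ to 3′ on the strand of the gene, so that a match on the opposite strand reads as its reverse complement.
HSP90B1, ER stress element, chr12:103930211-103930239, plus strand: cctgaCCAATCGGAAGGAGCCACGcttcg
HSP90B1, ER stress element on the opposite strand, chr12:103930316-103930344, plus strand: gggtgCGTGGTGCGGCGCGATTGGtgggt
CRELD2, ER stress element on the opposite strand, chr22:49918549-49918577, plus strand: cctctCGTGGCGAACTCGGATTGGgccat
XBP1, ER stress element, chr22:28800598-28800626, minus strand: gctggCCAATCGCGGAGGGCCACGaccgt
HERPUD1, ER stress element II, chr16:56932020-56932040, plus strand: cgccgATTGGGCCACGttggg
HERPUD1, C/EBP-ATF site on the opposite strand, chr16:56931961-56931978, plus strand: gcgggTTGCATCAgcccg
ASNS, C/EBP-ATF site, chr7:97872464-97872481, minus strand: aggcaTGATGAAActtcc
CHAC1, C/EBP-ATF site on the opposite strand, chr15:40953257-40953274, plus strand: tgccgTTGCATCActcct
A match is a description of letters in these windows and not a bound site.

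Replicate arrays correlated between 0.9907 and 0.9986, and SCC090 control replicate 1 gave the lowest value. SQ20B control replicate 3 lies in another file-date batch than the other 35 arrays of the 6 lines. The 5 measured keratinocyte markers averaged 9.36 to 12.38, while the 6 leukocyte and 8 endothelial markers averaged no more than 6.02 and 6.08. Of the 8 fibroblast markers only COL1A1, at 8.26, averaged above 7. Marker levels moved with treatment in several lines. Of the 5 keratinocyte markers 4 rose in SQ20B and in 93VU147T, where array means ran from 10.31 to 10.39 in treated and from 9.62 to 9.64 in control cells. Of the 8 fibroblast markers 4 rose in SCC25 (LUM by 1.8), 4 rose in SCC61, and 3 rose and 1 fell in SQ20B (COL1A1 rose by 1.83). Fibroblast array means ran from 6.64 to 6.7 in treated and from 6.32 to 6.38 in control SCC25 cells, and from 5.64 to 5.7 and from 5.14 to 5.21 in SQ20B. The part of these markers in the changes described here was not tested. The 3′ to 5′ signal ratio of ACTB, a sign of RNA quality, was higher on every treated than on every control array of SQ20B (by 0.29), SCC047 (by 0.11) and SCC25 (by 0.07, log2). Its part in the changes of those lines was not tested.

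After cetuximab these genes were lower most widely in SCC61 and 93VU147T. In SCC61, 29 of 38 passed as lower and 1 as higher, against 19.8% and 24.4% of all genes. In 93VU147T, 20 passed as lower and 1 as higher, against 18.8% and 15.8%. In SCC047, 10 were lower and 7 higher, against 19% and 17.3%, and in SQ20B 10 were lower and 7 higher, against 14.9% and 18.4%. In SCC25, 2 were lower and 5 higher, against 7.3% and 8.66%, and in SCC090 1 was lower and 1 higher, against 0.885% and 0.516%. A gene passed where limma's p, adjusted over all genes by the Benjamini-Hochberg method, was under 0.05. In total RNA of a culture, fewer expressing cells and less mRNA per cell cannot be told apart.

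**Figure D1:**
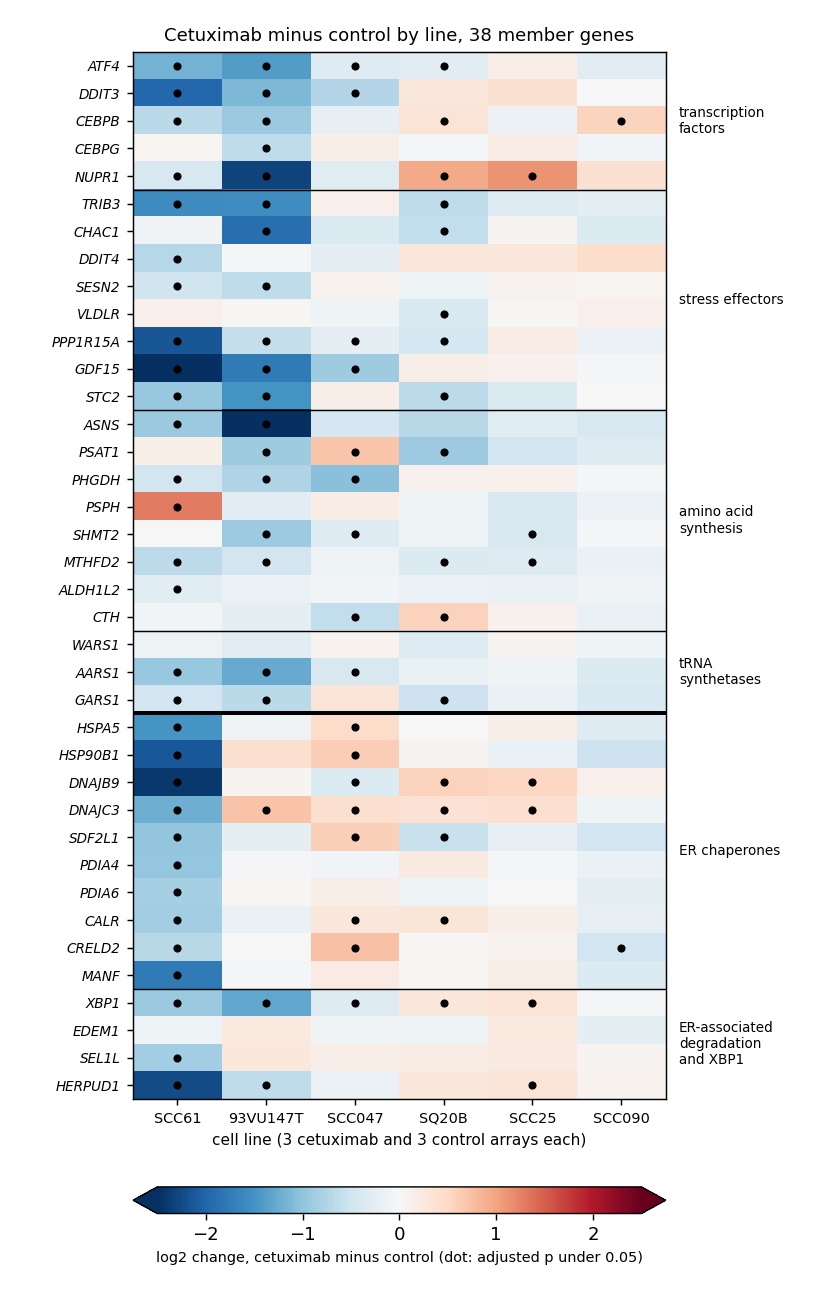
Log2 change (cetuximab minus control) of the 38 measured genes (rows, by role) in the 6 lines (columns, n = 3 treated and 3 control arrays each), with a dot where the adjusted p was under 0.05. The thick line parts 24 ATF4-linked genes above from 14 ER genes below, and the ER block is blue with dots in SCC61 and mostly pale in 93VU147T.

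The ATF4-linked and the ER genes moved together in SCC61 and apart in 93VU147T. In 93VU147T, 18 of 24 ATF4-linked genes fell and 0 rose, with a median change of -0.82, while 2 of 14 ER genes fell and 1 rose, with a median of -0.02 that turned to 0.01 without control replicate 1. In SCC61, 13 of 14 ER genes fell and 0 rose, with a median of -0.97, and 16 of 24 ATF4-linked genes fell and 1 rose, with a median of -0.48. The ER genes had the higher median in SCC047 (0.18, with 6 higher and 2 lower) beside the ATF4-linked genes (-0.23, with 1 higher and 8 lower). The same order held in SQ20B, where 4 ER genes were higher and 1 lower (median 0.12) and 3 ATF4-linked genes were higher and 9 lower (median -0.16, and -0.36 without control replicate 2). In SCC25 the medians were 0.17 for ER genes (4 higher, 0 lower) and 0.05 for ATF4-linked genes (1 higher, 2 lower; -0.02 without control replicate 2), and in SCC090 they were -0.21 (0 higher, 1 lower) and -0.09 (1 higher, 0 lower), or -0.13 and -0.04 without control replicate 1. The median change of all 19775 genes lay between -0.04 and 0 in every line.

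**Figure D2:**
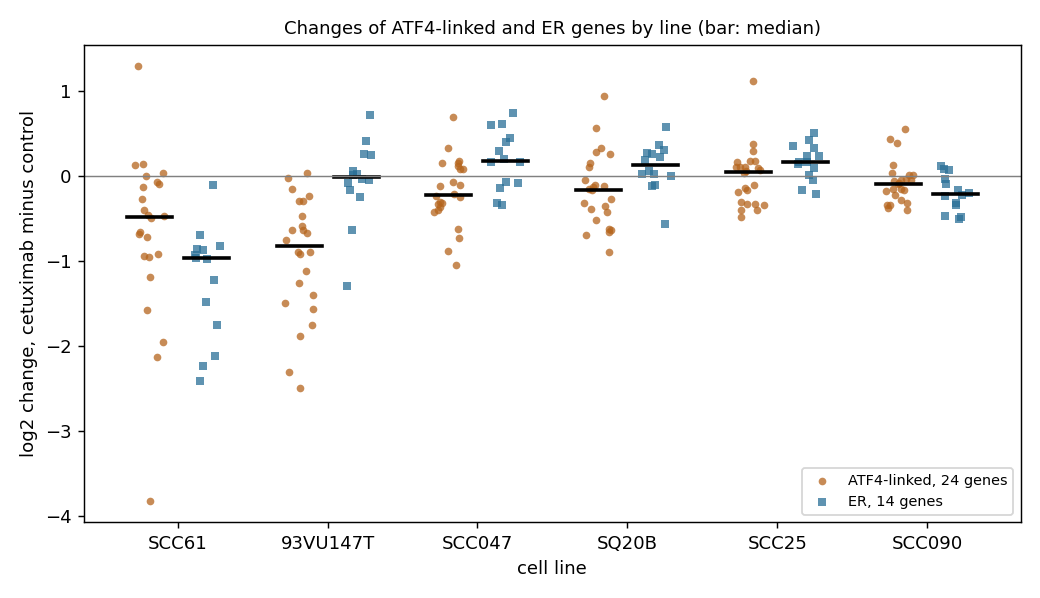
Each point is 1 gene's log2 change (cetuximab minus control) in 1 line, circles for the 24 ATF4-linked genes and squares for the 14 ER genes, with the median as a bar. The medians stand at -0.48 and -0.97 in SCC61, and at -0.82 and -0.02 in 93VU147T.

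All 10 ER chaperones fell in SCC61. HSP90B1 (GRP94), the HSP90 of the ER lumen, read 9.26, 9.88 and 9.26 in treated cells, against 11.66, 11.7 and 11.41 in control cells. Its change was -2.12 ± 0.19 (SE), a 4.36-fold fall (adjusted p = 5.7e-11). The probe set may bind similar transcripts, and a second one of the gene changed by -1.04. DNAJB9, the co-chaperone ERdj4, read 7.51, 7.71 and 7.49 in treated cells, against 9.96, 10.02 and 9.94 in control cells. That is a 5.31-fold fall (-2.41 ± 0.09, adjusted p = 4.26e-19), and the gene's other 2 probe sets changed by -2.16 and -2.69. Among the rest, HSPA5, the main Hsp70 chaperone of the ER, fell by 1.48 on the log2 scale and MANF, a secreted ER stress protein, by 1.76. The smallest falls were those of CRELD2 (-0.69) and of the disulfide isomerase PDIA6 (-0.83), both past the threshold (adjusted p = 1.85e-05 and 5.56e-12).

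HERPUD1, an ER membrane protein of the degradation machinery, read 9.55, 9.55 and 9.52 in treated SCC61 cells, against 11.75, 11.86 and 11.73 in control cells. Treated and control arrays lay far apart (-2.24 ± 0.11, adjusted p = 1.8e-16). XBP1 fell by 0.93 and SEL1L, the adaptor of the SYVN1 ligase, by 0.86, while EDEM1, which routes misfolded glycoproteins to degradation, stood at -0.11 ± 0.12 (adjusted p = 0.485). The dimmer SEL1L probe sets changed less in this line, by -0.31, -0.22 and -0.08.

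Among ATF4-linked genes, the secreted cytokine GDF15 had the widest change of the list in SCC61. It read 6.36, 6.56 and 6.46 in treated cells, against 10.56, 10.4 and 9.88 in control cells (-3.82 ± 0.16, adjusted p = 3.39e-18). Its 2 dimmer probe sets changed by -0.48 and -0.26 in the same arrays. PPP1R15A (GADD34), the phosphatase subunit that reverses eIF2alpha phosphorylation, read 8, 7.83 and 7.9 in treated cells, against 10.08, 10.25 and 9.8 in control cells (-2.13 ± 0.08, adjusted p = 3.28e-19). DDIT3 read 8.28, 8.1 and 8.09 in treated cells, against 10.28, 10.03 and 10.04 in control cells (-1.96 ± 0.16, adjusted p = 1.03e-11). ATF4 itself read 11.02, 11.07 and 11.09 in treated cells, against 12.27, 12.29 and 12.18 in control cells (-1.19 ± 0.1, adjusted p = 3.41e-11). In each of these genes every treated array lay below every control array.

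The amino acid genes did not fall as a block in SCC61: 4 of 8 fell and 1 rose. ASNS, asparagine synthetase, read 9.98, 9.85 and 10.03 in treated cells, against 10.86, 10.87 and 10.88 in control cells (-0.92 ± 0.31, adjusted p = 0.0158). The rise was that of PSPH, the last enzyme of serine synthesis, named here after its values were seen. It read 8.27, 8.46 and 8.42 in treated cells, against 6.79, 7.11 and 7.38 in control cells (1.29 ± 0.15, adjusted p = 6.82e-09), and its other 2 probe sets changed by 1.48 and 1.85. PSPH has a pseudogene copy whose transcript these probes may also bind. PSAT1, the enzyme before it in the pathway, stood at 0.14 (adjusted p = 0.549) and the mitochondrial serine enzyme SHMT2 at 0 (adjusted p = 0.996).

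**Figure D3:**
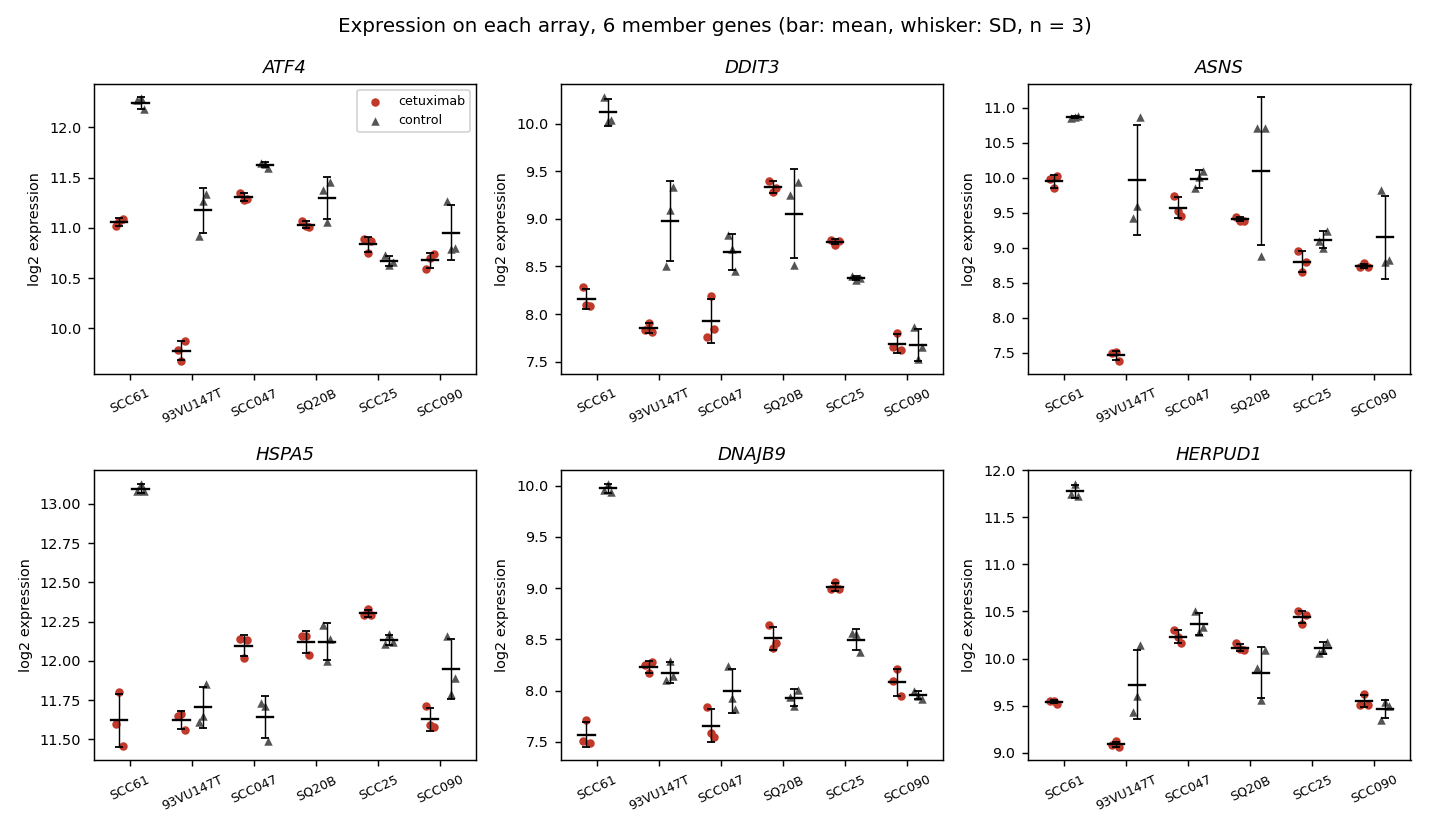
Log2 expression of 6 genes on every array of the 6 lines, circles for cetuximab and triangles for control, with the mean as a bar and the SD as a whisker (n = 3). ATF4, DDIT3 and ASNS are ATF4-linked genes and HSPA5, DNAJB9 and HERPUD1 are ER genes; in 93VU147T the treated ATF4 arrays (9.68 to 9.87) lie below the controls (10.92 to 11.34) while the treated HSPA5 arrays (11.56 to 11.66) overlap the controls (11.61 to 11.85).

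In 93VU147T the falls lay in the ATF4-linked genes. ASNS read 7.5, 7.51 and 7.39 in treated cells, against 9.43, 9.6 and 10.87 in control cells, a 5.64-fold fall (-2.5 ± 0.31, adjusted p = 1.51e-07). Control replicate 3 was the highest, and without it the change was -2.04. NUPR1, a small stress-induced nuclear protein, read 6.53, 6.31 and 6.61 in treated cells, against 8.27, 8.76 and 9.35 in control cells (-2.31 ± 0.17, adjusted p = 4.37e-12). CHAC1, which breaks down glutathione, read 5.61, 5.69 and 5.48 in treated cells, against 7.15, 7.52 and 7.75 in control cells (-1.88 ± 0.17, adjusted p = 5.09e-10). In all of these genes the control arrays had the wider spread.

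GDF15 read 8.94, 8.93 and 8.93 in treated 93VU147T cells, against 10.43, 10.69 and 10.98 in control cells (-1.76 ± 0.16, adjusted p = 6.53e-10). Its dimmer probe sets changed by -0.53 and -0.02 in this line. TRIB3, a pseudokinase that restrains ATF4, read 6.8, 6.98 and 6.83 in treated cells, against 8.03, 8.24 and 9.01 in control cells (-1.56 ± 0.19, adjusted p = 1e-07). ATF4 read 9.78, 9.68 and 9.87 in treated cells, against 10.92, 11.27 and 11.34 in control cells (-1.4 ± 0.1, adjusted p = 7.96e-12), and these treated arrays were the lowest ATF4 readings of the 42. DDIT3 read 7.83, 7.91 and 7.81 in treated cells, against 8.51, 9.09 and 9.33 in control cells (-1.12 ± 0.16, adjusted p = 1.91e-06). All 5 transcription factors, 6 of 8 stress effectors, 5 of 8 amino acid genes and 2 of 3 tRNA synthetases fell in this line.

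Of the 10 ER chaperones, 0 passed as lower in 93VU147T and 1 passed as higher. That one was DNAJC3, the co-chaperone that inhibits PERK, at 0.72 ± 0.11 (adjusted p = 4.55e-06), and its other 3 probe sets changed by 0.62 to 1.01. HSPA5 stood at -0.08 ± 0.09 (adjusted p = 0.536) and MANF at -0.05 ± 0.1 (adjusted p = 0.727). A second, dimmer probe set of HSPA5 changed by -0.55 in this line, unlike the first, and was not tested on its own. The ER genes that fell were XBP1 (-1.29 ± 0.09, adjusted p = 4.37e-12) and HERPUD1 (-0.64 ± 0.11, adjusted p = 4.42e-05).

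The change in SCC61 was set directly against that in 93VU147T, a contrast chosen after seeing the data. All 10 chaperones and 12 of 14 ER genes had a more negative change in SCC61 and 1 ER gene, XBP1, a more positive one, against 13.9% and 22% of all genes. HSPA5 changed by -1.48 in SCC61 and by -0.08 in 93VU147T (adjusted p of the difference = 1.77e-10). Its dimmer probe set changed by -2.19 in SCC61 and by -0.55 in 93VU147T. Of the 24 ATF4-linked genes 4 had a more negative change in SCC61 (DDIT3, DDIT4, PPP1R15A and GDF15) and 7 a more positive one (CEBPG, NUPR1, CHAC1, ASNS, PSAT1, PSPH and SHMT2). The ATF4 changes differed by 0.21 ± 0.15 (adjusted p = 0.294). Each line was also tested as its change minus the mean change of the other 5. In SCC61 the change of all 10 chaperones was more negative than in the other lines, and of 13 of 14 ER genes, against 15.3% of all genes. HSPA5 changed by -1.48 in SCC61 and by 0.04 in the mean of the others (adjusted p of the difference = 4.76e-14), and MANF by -1.76 and -0.01 (adjusted p = 9.18e-15). In 93VU147T, 16 of 24 ATF4-linked genes had a more negative change than in the other lines and 0 a more positive one, against 16.1% and 11.3% of all genes. Of its 10 chaperones 5 had a more positive change than in the other lines and 0 a more negative one. NUPR1 changed by -2.31 in 93VU147T and by 0.35 in the mean of the others (adjusted p = 4.66e-12), and ASNS by -2.5 and -0.55 (adjusted p = 4.88e-05). In SCC61 the ASNS change differed from the others by -0.05 ± 0.34 (adjusted p = 0.927). ATF4-linked genes in SCC61 had 10 more negative changes and 4 more positive ones, against 22.6% of all genes more positive. In the other lines more genes had a more positive change than a more negative one, with 14 more positive and 2 more negative in SCC047 (13.7% and 17.1% of all genes), 16 and 2 in SQ20B (17.8% and 15%), 16 and 1 in SCC25 (9.36% and 10.5%) and 11 and 1 in SCC090 (5.4% and 9.67%). These comparisons share their arrays, so a low change in SCC61 also raises the difference of every other line.

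SCC047 moved ER chaperones up. Of the 10, 6 passed as higher (HSPA5, HSP90B1, DNAJC3, SDF2L1, CALR and CRELD2) and DNAJB9 passed as lower, with a median of 0.34. HSP90B1 changed by 0.61 here, while its second probe set changed by 0.02. CRELD2, an ER stress-inducible folding factor, read 9.55, 9.44 and 9.38 in treated cells, against 8.71, 8.75 and 8.7 in control cells (0.74 ± 0.12, adjusted p = 1.28e-05). HSPA5 read 12.14, 12.02 and 12.13 in treated cells, against 11.73, 11.71 and 11.49 in control cells (0.45 ± 0.09, adjusted p = 0.000117). Both genes rose on every treated array.

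The serine pathway split in SCC047. PHGDH, its first enzyme, read 9.48, 9.63 and 9.45 in treated cells, against 10.58, 10.59 and 10.54 in control cells (-1.05 ± 0.13, adjusted p = 1.83e-07). PSAT1 read 10.5, 10.39 and 10.4 in treated cells, against 9.66, 9.66 and 9.91 in control cells (0.69 ± 0.17, adjusted p = 0.00174). PSPH stood at 0.18 ± 0.15 (adjusted p = 0.379). GDF15 read 7.8, 7.68 and 7.54 in treated cells, against 8.6, 8.6 and 8.46 in control cells (-0.88 ± 0.16, adjusted p = 6.49e-05). Its dimmer probe sets changed by -0.16 and -0.08 in SCC047. DDIT3 read 7.76, 8.19 and 7.84 in treated cells, against 8.83, 8.68 and 8.45 in control cells (-0.73 ± 0.16, adjusted p = 0.000569), and ATF4 changed by -0.33 ± 0.1 (11.35, 11.28 and 11.29 treated, against 11.65, 11.64 and 11.6 control, adjusted p = 0.0134). Treated and control arrays did not overlap for any of these named genes other than PSPH.

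In SQ20B the largest change was a rise of NUPR1, which read 6.27, 6.04 and 6.21 in treated cells, against 5.21, 5.15 and 5.32 in control cells (0.94 ± 0.17, adjusted p = 3.31e-05). DNAJB9 also rose, at 8.64, 8.42 and 8.47 in treated cells, against 7.94, 7.85 and 8.01 in control cells (0.58 ± 0.09, adjusted p = 9.89e-06). PSAT1 fell, at 9.77, 9.87 and 9.73 in treated cells, against 11.02, 10.17 and 10.89 in control cells (-0.9 ± 0.17, adjusted p = 9.21e-05). The PSAT1 controls were spread widely and still lay above every treated array. CHAC1 read 6.07, 6.24 and 6.19 in treated cells, against 7.05, 6.32 and 6.98 in control cells (-0.62 ± 0.17, adjusted p = 0.00511). STC2, a secreted glycoprotein induced by ER stress, read 7.07, 6.9 and 6.95 in treated cells, against 7.76, 7.14 and 8.01 in control cells (-0.66 ± 0.2, adjusted p = 0.00965). ATF4 read 11.07, 11.02 and 11.01 in treated cells, against 11.38, 11.06 and 11.46 in control cells, so that the arrays overlapped (-0.27 ± 0.1, adjusted p = 0.0471).

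The SQ20B counts rest on its controls. Control replicate 2 read low for the ATF4-linked genes, with a mean of 8.63 over the 24 genes where replicates 1 and 3 had 9.14 and 9.18, and without it 15 genes passed as lower. Control replicate 3 belongs to the other file-date batch, and within the larger batch alone 5 passed as lower: PPP1R15A, PSAT1, SDF2L1, MTHFD2 and CHAC1. In that setting ATF4 stood at -0.19 (adjusted p = 0.23) and TRIB3 at -0.39 (adjusted p = 0.122), while NUPR1 (0.99, adjusted p = 0.00012) and DNAJB9 (0.61, adjusted p = 2.85e-05) still passed.

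In SCC25, 5 of 38 genes passed as higher and 2 as lower, not far from the 8.66% and 7.3% of all genes. NUPR1 read 8.91, 8.6 and 8.71 in treated cells, against 7.77, 7.58 and 7.51 in control cells, a 2.17-fold rise (1.12 ± 0.17, adjusted p = 9.53e-06). DNAJB9 read 8.99, 9.06 and 8.99 in treated cells, against 8.56, 8.55 and 8.38 in control cells (0.51 ± 0.09, adjusted p = 0.000143). DNAJC3 read 9.08, 9.27 and 9.11 in treated cells, against 8.81, 8.82 and 8.58 in control cells (0.42 ± 0.11, adjusted p = 0.00753). In each of the 3 genes the treated arrays lay above the controls. XBP1 rose too, at 9.73, 9.59 and 9.62 in treated cells, against 9.22, 9.29 and 9.39 in control cells (0.35 ± 0.09, adjusted p = 0.00776). The fifth rise was that of HERPUD1 (0.33 ± 0.11, adjusted p = 0.0448). SHMT2 fell, at 10.14, 9.94 and 9.95 in treated cells, against 10.34, 10.3 and 10.57 in control cells (-0.4 ± 0.1, adjusted p = 0.0074), as did the mitochondrial folate enzyme MTHFD2 (-0.33 ± 0.09, adjusted p = 0.01). Without control replicate 3 of this line, 3 genes passed as higher and 1 as lower, and DNAJC3 (0.34) and SHMT2 (-0.31) no longer passed. With probe sets averaged per gene, DNAJC3 (0.31, adjusted p = 0.0554) and XBP1 (0.17, adjusted p = 0.0994) did not pass in SCC25.

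In SCC090 the transcription factor CEBPB passed as higher, with 9.96, 10.04 and 10.03 in treated cells, against 9, 9.76 and 9.6 in control cells (0.55 ± 0.13, adjusted p = 0.0164). CRELD2 passed as lower, with 8.04, 8.22 and 8.15 in treated cells, against 9.06, 8.43 and 8.32 in control cells (-0.47 ± 0.12, adjusted p = 0.0461). In both genes control replicate 1 stood farthest from the treated arrays. Without that array 0 of the 38 genes passed in limma (4 at an unadjusted p under 0.05), with CEBPB at 0.32 (adjusted p = 0.343) and CRELD2 at -0.24 (adjusted p = 0.672), and over all genes 18 passed as higher and 32 as lower.

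In the mean of the 6 lines, each line weighted equally, 27 of 38 genes passed as lower and 0 as higher, against 23.1% and 22.8% of all genes. The 5 largest falls were those of GDF15 (-1.04 ± 0.07), ASNS (-0.87 ± 0.13), TRIB3 (-0.7 ± 0.08), PPP1R15A (-0.56 ± 0.03) and ATF4 (-0.55 ± 0.04), with adjusted p from 1.94e-14 to 1.28e-06. This mean depends on which lines it holds. Without SCC61, 17 genes passed as lower and 3 as higher, and the ER genes had 2 lower and 3 higher in place of 10 lower and 0 higher. The ATF4-linked genes kept 15 lower calls without SCC61, where all 6 lines gave 17. With 93VU147T left out as well, 11 ATF4-linked genes passed as lower and 1 as higher, 0 ER genes passed as lower and 4 as higher, and GDF15 stood at -0.17 (adjusted p = 0.133). The background moved too. Of all 19775 genes 3869 passed as lower and 3550 as higher without SCC61, and 2642 and 2825 without both lines.

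Among the ATF4-linked genes, MTHFD2 was lower in SCC61, 93VU147T, SQ20B and SCC25, and PPP1R15A was lower in SCC61, 93VU147T, SCC047 and SQ20B, as was ATF4. ASNS had a negative change in all 6 lines and passed in SCC61 and 93VU147T. The alanyl-tRNA synthetase AARS1 fell by 0.95 in SCC61, by 1.26 in 93VU147T and by 0.4 in SCC047, and the glycyl-tRNA synthetase GARS1 fell in SCC61 (-0.47), 93VU147T (-0.67) and SQ20B (-0.52). Within the larger file-date batch alone the SQ20B fall of GARS1 did not pass in limma (-0.43, adjusted p = 0.0588). The tryptophanyl-tRNA synthetase WARS1 passed in 0 lines, with changes from -0.32 to 0.08. ALDH1L2, a mitochondrial folate enzyme, averaged 4.24 over the 42 arrays, so its changes of -0.27 to -0.07 were read near the dim end of the scale.

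The change differed among the 6 lines for 35 of 38 genes by limma's F test, against 59% of all genes. The exceptions were VLDLR, ALDH1L2 and WARS1. Of the 38 genes, 13 passed as higher in at least 1 line and lower in another, against 25.9% of all genes. DNAJC3 was higher in 4 lines and lower in SCC61. Its rise in SQ20B (0.36) did not pass in limma within the larger file-date batch alone (0.24, adjusted p = 0.116). The other DNAJC3 probe sets changed by 0.15, -0.25 and -0.19 in SQ20B. NUPR1 was higher in SCC25 and SQ20B and lower in 93VU147T and SCC61, where its change was -0.4 ± 0.17 (adjusted p = 0.0484, and 0.0566 with the replicate number as a block). DNAJB9 was higher in the same 2 lines and lower in SCC61 and SCC047.

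The lines also differed before treatment. Untreated levels differed among the 6 lines for 38 of 38 genes, against 77.1% of all genes. Untreated SCC61 had a higher level than the other 5 lines for 28 genes and a lower one for 5, against 23.8% and 30.5% of all genes, and for all 14 ER genes it was higher. It held the highest mean of the 6 untreated lines for 24 of 38 genes (63.2%), where 16.4% of all genes had their highest mean in SCC61. Control HSP90B1 averaged 11.59 in SCC61 and 8.81 in the other 5 lines (6.86-fold, adjusted p = 4.11e-17), and control TRIB3 averaged 11.24 and 8.64 (6.06-fold, adjusted p = 1.95e-16). For GDF15 the control means were 10.28 in SCC61 and 7.54 in the others (6.69-fold, adjusted p = 1.33e-18).

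After cetuximab, SCC61 no longer stood above the other lines in its ER genes. It held the highest mean of the 6 treated lines for 0 of 14 ER genes, lay within the range of the other 5 for 9 and below it for 5 (HSPA5, DNAJB9, PDIA4, CALR and SEL1L), where untreated SCC61 had lain above the range for 12. HSPA5 averaged 11.62 in treated SCC61 cells, with 11.63 to 12.3 in the other treated lines, and 13.1 in control SCC61 cells, with 11.64 to 12.13 in the other control lines. Of the 24 ATF4-linked genes, 6 stayed above the other lines after treatment, where 12 had been above before. ASNS was one of them, at 9.95 in treated SCC61 cells with 7.47 to 9.57 in the other treated lines. The change and the untreated level share the 3 control arrays of SCC61, so they are 2 readings of the same arrays.

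**Figure D4:**
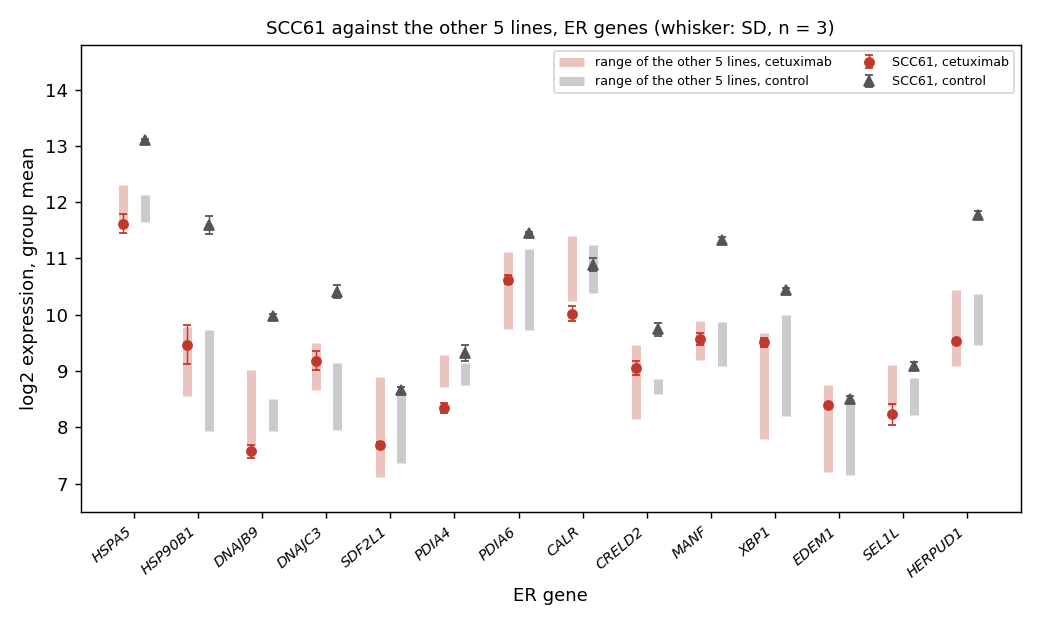
Mean log2 expression of the 14 ER genes in SCC61 (circles for cetuximab, triangles for control, whiskers SD, n = 3) beside the range of the group means of the other 5 lines under the same condition (bars). Control SCC61 lies above the bar for 12 genes and treated SCC61 above it for 0.

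SCC090 lay at the other end, with 27 genes lower than in the other untreated lines and 5 higher, against 35.3% and 29.3% of all genes. Its control STC2 averaged 5.03, with 7.41 in the other lines (adjusted p = 4.86e-15), and its GDF15 5.61, with 8.47. VLDLR, a lipoprotein receptor gene that ATF4 can induce, went the other way, with 8.76 in SCC090 and 4.91 in the others (adjusted p = 2.01e-26). Apart from 93VU147T, at 6.68, the other lines averaged 4.09 to 4.89, near the dim end of the scale, so no fold is given.

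SCC25 was lower for 22 genes and higher for 8, against 25.3% and 22.7% of all genes. Its control GDF15 averaged 4.7, with 8.65 in the others (15.5-fold lower, adjusted p = 1.32e-22), and its PHGDH 7.7, with 10.25 (5.85-fold lower, adjusted p = 7.47e-20). TRIB3 was lower too, at 8.04 in SCC25 and 9.28 in the others. GDF15 had the widest range of the list, since control 93VU147T averaged 10.7, 64.1-fold above SCC25. GDF15 at 4.7 in SCC25 is close to the dim end of the scale.

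93VU147T was higher for 13 and lower for 18, against 28.6% and 24.5% of all genes, and 12 of its 18 lower genes were ER genes. NUPR1 averaged 8.79 in control 93VU147T cells, with 6.67 in the others (adjusted p = 1.53e-15), and DDIT4, an inhibitor of mTORC1 signalling, averaged 9.53, with 11.16 (adjusted p = 1.88e-13). In SQ20B, which was higher for 13 genes and lower for 9 (24.4% and 27.4% of all genes), NUPR1 averaged 5.23, with 7.38 in the others, and PHGDH 11.06, with 9.58. SCC047 was higher for 13 and lower for 12 (28.3% and 24.2% of all genes). Its WARS1 averaged 11.5, with 9.66 in the others (adjusted p = 1.64e-16), while HSP90B1 averaged 7.94, with 9.54, and NUPR1 5.86, with 7.25.

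**Figure D5:**
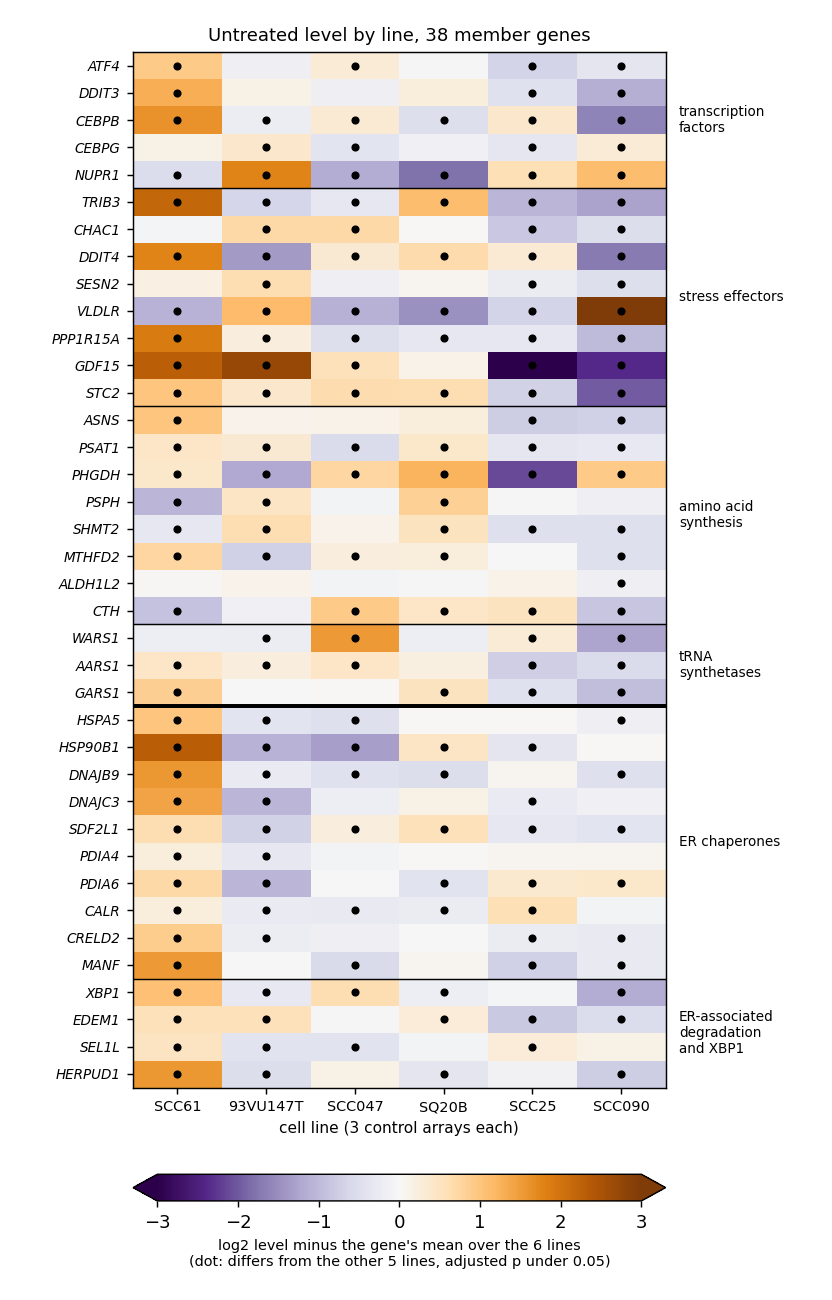
Untreated log2 level of each gene (rows) in the 6 lines (columns, n = 3 control arrays each) relative to the gene's mean over the lines, with a dot where the line differed from the other 5 at an adjusted p under 0.05. The SCC61 column is above the mean for all 14 ER genes, and GDF15 runs from 4.7 in SCC25 to 10.7 in 93VU147T.

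Control arrays of 3 lines varied more than their treated arrays in the ATF4-linked genes. The median SD over the 24 genes was 0.07 in treated and 0.28 in control 93VU147T cells, 0.07 and 0.35 in SQ20B, and 0.09 and 0.23 in SCC090, where all genes had 0.1 and 0.11, 0.08 and 0.11, and 0.09 and 0.11. In SCC61 it was 0.08 in treated and 0.09 in control cells. The mean over the 24 genes was 8.82, 9.02 and 9.42 in the 93VU147T controls, all above the treated 8.16, 8.14 and 8.11. The mean over the 14 ER genes was 8.98, 9.01 and 9.06 in the same controls. In SQ20B the controls of the 24 genes, at 9.14, 8.63 and 9.18, lay on both sides of the treated arrays at 8.85, 8.8 and 8.82.

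Treated SCC1 cells and untreated HaCaT cells have no partner arrays and lie in other file-date batches, so their levels are given alone. SDF2L1, an ER lumen protein of the folding machinery, averaged 9.52 ± 0.09 (SD, n = 3) in treated SCC1 cells, where the 36 arrays of the 6 lines ran from 6.94 to 8.98, and CEBPG averaged 7.74 ± 0.05, below their 8.02 to 9.52. In HaCaT cells GDF15 (4.42 ± 0.06), MTHFD2 (9.62 ± 0.03), CTH, an enzyme of cysteine synthesis (5.35 ± 0.1), and calreticulin, CALR (9.5 ± 0.04), lay below all 36 arrays. One of the HaCaT arrays is named as a repeat of another.

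Other genes of the pathway were listed for their role, but with earlier results of these data known, so they are no independent check. Their shares are read against 23.1% lower and 22.8% higher of all genes in the mean of the 6 lines. In the mean of the 6 lines 12 of 22 other ATF4 target genes were lower and 4 higher, led by the transcription factor ATF3 (-0.62 ± 0.04) and PYCR1, the last enzyme of proline synthesis (-0.5 ± 0.04). Of 29 other ER folding and degradation genes 7 were lower and 6 higher, near those shares, led by the glycoprotein folding sensor UGGT1 (0.25 ± 0.04) and the ER oxidase ERO1B (-0.23 ± 0.07). In SCC61, 17 of these 29 were lower and 1 higher (median -0.32), against 19.8% and 24.4% of all genes, and in 93VU147T 5 were lower and 10 higher (median 0.12), against 18.8% and 15.8%. Of 13 other tRNA synthetases 5 were lower in the mean and 3 higher, led by YARS1 (-0.43 ± 0.05) and SARS1 (-0.38 ± 0.04), and in SCC047 8 of them were higher and 2 lower, against 17.3% and 19% of all genes. Of 10 stress sensors and kinases 4 were higher in the mean and 1 lower, led by EIF2AK2, the kinase of eIF2alpha that answers to double-stranded RNA (0.44 ± 0.05), and MBTPS2, a protease that activates ATF6 (0.24 ± 0.04).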

How the data were processed

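RNA of 8 cell lines was measured on 42 arrays. Deposited by the authors are log2 values of each probe set, from fRMA 1.16.0 (background correction, normalization to a frozen reference, probe summary). A batch correction, pSVA, is also described in the methods, without saying if the deposited table includes it. Values were used as deposited. Of 54675 probe sets, 62 are controls, 41091 name 1 gene, 1801 several and 11721 none listed here. The brightest probe set (mean of all 42 arrays) stood for each of 19775 genes.

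In limma 3.58.1 (R 4.3.3), 12 group means of 36 arrays were fitted (24 residual and 6.86 prior degrees of freedom), with Benjamini-Hochberg adjustment over all genes and a threshold of 0.05. Contrasts were cetuximab minus control per line and in the mean, SCC61 against 93VU147T, each line against the other 5 for change and untreated level, and F tests over lines. Members, lists and tests were chosen with earlier results of these data known. Genes with values per array are ATF4 and DDIT3 where they passed, the 5 largest changes per line with separate arrays, the 5 largest in the mean and the 3 largest untreated differences per line; others are examples. Code was tested on simulated data. Alternatives were other probe set choices, a filter on dim genes, other scalings, a replicate block, all arrays, batch and an intensity trend, and each array or line left out. The precision is limited by 3 arrays per group.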

Additional observations from a re-analysis of the deposited data

Results flagged for a closer look

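For 13 of 38 genes the change passed as higher in at least 1 line and lower in another, against 25.9% of all genes. The difference among lines passed limma's F test for each of them. Genes called in opposite directions are nearly bound to pass this test on the same arrays, so its p-values are no separate support. The adjusted p of that test was 2.5e-17 for DNAJB9, which changed by 0.58 in SQ20B and by -2.41 in SCC61. It was 4.65e-14 for HERPUD1 (0.33 in SCC25, -2.24 in SCC61), 5.53e-13 for HSPA5 (0.45 in SCC047, -1.48 in SCC61) and 6.7e-13 for NUPR1 (1.12 in SCC25, -2.31 in 93VU147T). It was 2.42e-12 for XBP1 (0.35 in SCC25, -1.29 in 93VU147T), 2.91e-11 for DNAJC3 (0.72 in 93VU147T, -1.23 in SCC61) and 5.72e-10 for CALR (0.31 in SQ20B, -0.87 in SCC61). It was 2.49e-09 for HSP90B1 (0.61 in SCC047, -2.12 in SCC61), 4.28e-08 for CEBPB (0.55 in SCC090, -0.92 in 93VU147T) and 3.67e-07 for CRELD2 (0.74 in SCC047, -0.69 in SCC61). It was 2.46e-06 for SDF2L1 (0.6 in SCC047, -0.98 in SCC61), 3.1e-06 for PSAT1 (0.69 in SCC047, -0.9 in SQ20B) and 0.00301 for CTH (0.57 in SQ20B, -0.62 in SCC047). The rise of CEBPB in SCC090 was not called without control replicate 1 of that line. A second probe set of HSP90B1 changed by 0.02 in SCC047.

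In treated SCC1 cells, which entered no comparison, SDF2L1 (9.52) and ALDH1L2 (4.8) lay above all 36 arrays of the 6 lines. ALDH1L2 is dim on all arrays.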

How the results depend on the processing

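None of the 38 gene changes chosen by the naming rule turned direction under the alternatives run, while 2 medians near 0 did, with 1 array left out or probe sets averaged (ATF4-linked in SCC25, -0.01 averaged, and ER in 93VU147T, 0.01 averaged). Counts of genes in the mean moved with the lines it held, a choice made after seeing the data: 17 lower and 3 higher without SCC61, 11 and 5 without SCC61 and 93VU147T, 2 higher without 93VU147T, and 1 higher without SCC25 or SCC090. Over all genes 4559 passed as lower and 4514 as higher in the 6 lines, and 2642 and 2825 without SCC61 and 93VU147T. With probe sets averaged per gene, 2 passed as higher in SCC25, 4 in SQ20B, 2 in 93VU147T and 1 in the mean, 2 as lower in SCC090, and the ER medians were 0.12 in SCC25, 0.02 in SQ20B and 0.27 in SCC047. Another probe set choice gave 4 lower in SCC25 and 2 higher in 93VU147T. A filter on dim genes gave 4 lower in SCC25 and 3 in SCC090, and an intensity trend 4 in each. SCC090 had 4 lower with all 42 arrays in the fit and 0 with centred arrays, quantile normalization or batch as a covariate. Quantile normalization gave medians of -0.57 for ATF4-linked genes in SCC61, and of 0.07 in SQ20B and -0.06 in 93VU147T for ER genes. With batch as a covariate, or in 1 batch alone, SQ20B had 5 lower.

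With 1 array left out, genes passing as higher ran from 3 to 6 in SCC25, 4 to 9 in SQ20B, 0 to 2 in SCC090, 1 to 3 in 93VU147T and 0 to 1 in the mean. Genes passing as lower ran from 1 to 4 in SCC25, 5 to 15 in SQ20B and 0 to 6 in SCC090, and changes differing in SCC090 from 7 to 16. The ATF4-linked median ran from -0.53 to -0.45 in SCC61, -0.36 to -0.14 in SQ20B, -0.02 to 0.11 in SCC25 and -0.13 to -0.04 in SCC090, and the ER median from 0.08 to 0.2 in SQ20B, -0.06 to 0.01 in 93VU147T and -0.25 to -0.13 in SCC090. ATF4 in SQ20B no longer passed in 25 of 36 such fits and CRELD2 in SCC090 in 26.

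Whether replicate numbers pair the samples in some lines was not settled (r from -0.15 to 0.32 over 18 pairs, 7 over 0.1, 9 best with their own number). A fit with the replicate block changed 3 of 266 calls of these genes in a line or the mean (NUPR1 in SCC61 lost, WARS1 and PDIA4 in SQ20B gained), and called 4493 genes higher and 4534 lower in the mean.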
